A study of Danio rerio with 6 samples.

Results

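The genes described here encode feedback regulators and targets of fibroblast growth factor (FGF) and ERK signaling. They are 10 of the 30714 rows of a gene count table and comprise 5 dual specificity phosphatase genes (*dusp1*, *dusp2*, *dusp4*, *dusp5* and *dusp6*), 3 Sprouty genes (*spry1*, *spry2* and *spry4*) and 2 ETS transcription factor genes (*etv4* and *etv5b*). All 10 were present in the table and all 10 passed the filter on low counts, as did 21617 rows in all. The members had been chosen with the differences between these pools already known, so those differences are given as a description and no p-value is attached to any member.

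RNA-Seq was performed on 6 pools of whole larvae of the wild-type AB strain at 7 dpf. The 3 EAE (embryonic alcohol exposure) pools had been kept in 1% EtOH between 12 hpf and 5 dpf, and the 3 control pools in 0% EtOH over the same period, and both groups then spent the last days before collection without EtOH, with paramecia as food. Each pool combined 30 larvae of mixed sizes, so a value is an average over animals and tissues, and nothing in the labels ties an EAE pool to a control pool of the same number. The paper describes the larvae as pooled from multiple combined clutches. Whether the 3 pools of a group came from separate clutches is not settled by this or by the labels, so the errors given here refer to these pools only. An SD is the spread of a gene between pools. A standard error comes from the edgeR fit, whose estimate of spread also drew on the other genes.

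FGFs are secreted ligands that bind receptor tyrosine kinases and signal through RAS, RAF and MEK to the kinase ERK. ERK-dependent transcription switches on inhibitors of the same route, among them Sprouty proteins, which act between the receptor and ERK, and dual specificity phosphatases, which remove the activating phosphates from MAP kinases. The ETS factors Etv4 and Etv5 carry part of the transcriptional response to FGF. In zebrafish embryos *dusp6*, *spry4*, *etv4* and *etv5b* are used as readouts of FGF activity, which patterns the midbrain-hindbrain boundary, the pharyngeal arches and the fin buds.

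The levels of all 5 phosphatase genes were lower in the EAE pools, by log2 fold changes between -0.999 and -0.37, and the 3 EAE pools of each lay below the 3 control pools. Of the Sprouty genes *spry4* was lower by a smaller amount, and *spry1* and *spry2* were close to the control level. The ETS factor genes *etv4* and *etv5b* were also close to the control level. Levels are given as CPM, the share of a pool's counts on a gene scaled to 1000000 counts, after normalization by the trimmed mean of M values (TMM), and a log2 fold change is EAE over control with its standard error (SE).

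With an adjusted p-value limit of 0.05 in the edgeR quasi-likelihood test, fitted on the whole table, 6 of the 10 members counted as lower and 0 as higher, where 6.95% of all tested genes counted as lower and 7.22% as higher. DESeq2 called the same 6 members lower. Of the 17003 genes to which it gave an adjusted p-value, 5.28% were lower and 5.58% higher. The EAE pools lay below the control pools without overlap for 8 of the 10 members, and 16.0% of all tested genes did so. Since the members were selected on this contrast, nothing is read from these counts. The median log2 fold change was -0.32 over the 10 members and 0.00078 over all tested genes.

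The largest difference was that of *dusp2*, whose mammalian product is a nuclear MAP kinase phosphatase induced when blood cells are activated. The level of *dusp2* was 23.6, 26.1 and 23.8 CPM in EAE pools 1, 2 and 3, against 43.2, 55.0 and 48.7 CPM in control pools 1, 2 and 3. The highest EAE pool thus stayed under the lowest control pool, which was 1.66 times as high. Its log2 fold change was -0.999 (SE 0.08), a level 50.0% lower in EAE larvae, and 0.148% of all tested genes had a lower log2 fold change.

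The gene *dusp1* encodes the nuclear phosphatase that in mammals acts mainly on p38 and JNK and is induced by growth factors, stress and glucocorticoids. Its level was 71.7, 69.8 and 57.0 CPM in the EAE pools and 97.3, 124 and 109.9 CPM in the control pools. EAE pool 3 was lowest of all, and control pool 1 was the control pool nearest to the EAE group. The log2 fold change was -0.73 (SE 0.08), or 39.9% lower, and the coefficient of variation was 12.1% among EAE pools and 12.0% among controls.

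The gene *dusp5* encodes a nuclear phosphatase that in mammals is selective for ERK. There were 10.8, 10.9 and 10.9 CPM of it in the EAE pools, against 15.2, 17.2 and 16.1 CPM in the control pools. Its EAE pools were nearly equal, varying by 0.718%, which is less than the 6.60% that counting alone would give at this depth. The log2 fold change of *dusp5* was -0.57 (SE 0.08).

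The gene *dusp4* encodes a further nuclear phosphatase of this inducible group. Its level was 13.2, 14.9 and 13.2 CPM in the EAE pools, against 16.9, 21.4 and 18.6 CPM in the control pools. The groups did not overlap, although control pool 1 was only 1.14 times as high as EAE pool 2. Its log2 fold change was -0.46 (SE 0.09).

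The gene *dusp6* encodes the cytoplasmic ERK phosphatase that limits FGF signaling in zebrafish embryos. It had the most counts of the 10 members, 2858 to 3442 reads per EAE pool and 3203 to 3913 per control pool. Its level was 147.7, 141.5 and 143.8 CPM in the EAE pools and 184.1, 185.4 and 189.9 CPM in the control pools. The pools of a group lay close together, with coefficients of variation of 2.18% in EAE larvae and 1.62% in controls, near the counting error of 1.81% and 1.67%. The log2 fold change of -0.37 (SE 0.05, 95% interval from -0.47 to -0.27), or 22.6% lower, was the smallest of the phosphatase genes and had the smallest SE.

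**Figure D1:**
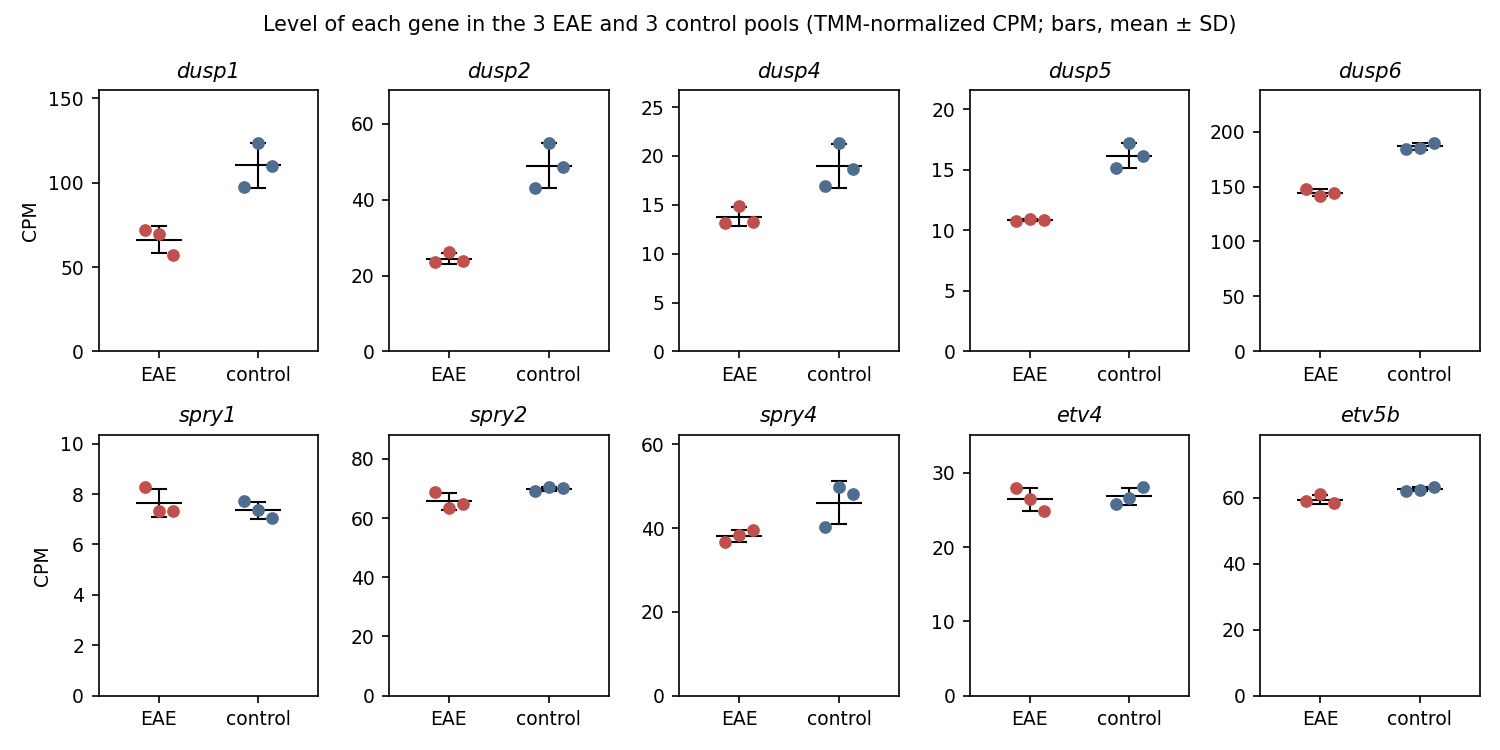
Level of each member in TMM-normalized CPM (vertical axes, each starting at 0) in the 3 EAE pools (red, left) and 3 control pools (blue, right), with 1 point per pool and bars for the mean ± SD. The 5 phosphatase genes of the upper row separate the groups, with *dusp2* at 23.6 to 26.1 CPM in EAE pools against 43.2 to 55.0 CPM in controls, while *spry1* and *etv4* overlap.

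The Sprouty genes encode membrane-associated inhibitors of receptor tyrosine kinase signaling. The level of *spry4* was 36.7, 38.3 and 39.5 CPM in the EAE pools, against 40.3, 49.8 and 48.1 CPM in the control pools. The gap between the groups was narrow, since control pool 1 was 1.02 times as high as EAE pool 3. The log2 fold change of *spry4* was -0.27 (SE 0.07).

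Since the members were chosen on this contrast, whether *spry4* or any other member counted as lower is a description only. The gene *spry4* no longer counted as lower without EAE pool 1, control pool 2 or control pool 3. Its log2 fold change in these fits was -0.24 (SE 0.08), -0.21 (SE 0.08) and -0.23 (SE 0.08), in the same order. Without control pool 1, its lowest control, the log2 fold change was -0.36 (SE 0.07).

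The genes *spry2* and *spry1* differed little between the groups. The level of *spry2* was 68.8, 63.5 and 64.6 CPM in the EAE pools and 69.2, 70.5 and 70.1 CPM in the control pools. The EAE pools lay just below the controls, with a log2 fold change of -0.09 (SE 0.05, 95% interval from -0.20 to 0.02). The level of *spry1* was 8.28, 7.32 and 7.34 CPM in the EAE pools and 7.71, 7.35 and 7.04 CPM in the control pools. These overlapped, with a log2 fold change of 0.06 (SE 0.11, 95% interval from -0.16 to 0.28), and at 127 to 193 reads per pool *spry1* had the fewest counts and the widest interval of the members.

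The genes *etv4* and *etv5b* encode ETS factors of the Pea3 group. The level of *etv4* was 27.9, 26.5 and 24.9 CPM in the EAE pools, against 25.7, 26.6 and 28.1 CPM in the control pools. The groups overlapped throughout, with a log2 fold change of -0.02 (SE 0.07, 95% interval from -0.16 to 0.12). The level of *etv5b* was 59.1, 61.0 and 58.3 CPM in the EAE pools and 62.2, 62.3 and 63.3 CPM in the control pools. All its EAE pools were below the controls by a small amount, with a log2 fold change of -0.07 (SE 0.05, 95% interval from -0.18 to 0.03). Reads of *etv5b* and its paralog *etv5a* could have been shared in the counting, and *etv5a* had a log2 fold change of -0.12 (SE 0.05).

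Summed by role, the phosphatase genes reached 249 to 267 CPM in the EAE pools and 357 to 403 CPM in the control pools. The Sprouty genes together reached 109 to 114 CPM in the EAE pools and 117 to 128 CPM in the control pools. For the ETS factors the sums were 83.2 to 87.5 CPM in the EAE pools and 87.9 to 91.4 CPM in the control pools. The sums of all 3 roles lay lower in each EAE pool than in each control pool, by a wide margin only for the phosphatases. For the ETS factors the groups nearly touched, at 87.5 and 87.9 CPM, and *etv4* and *spry1* taken singly overlapped. Of all tested genes taken singly, 16.0% had all EAE pools below the control pools. The members were chosen on this contrast, so nothing is read from the order of the sums. Sums are dominated by the genes with the most reads, and *dusp6* and *dusp1* carry most of the phosphatase sum.

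**Figure D2:**
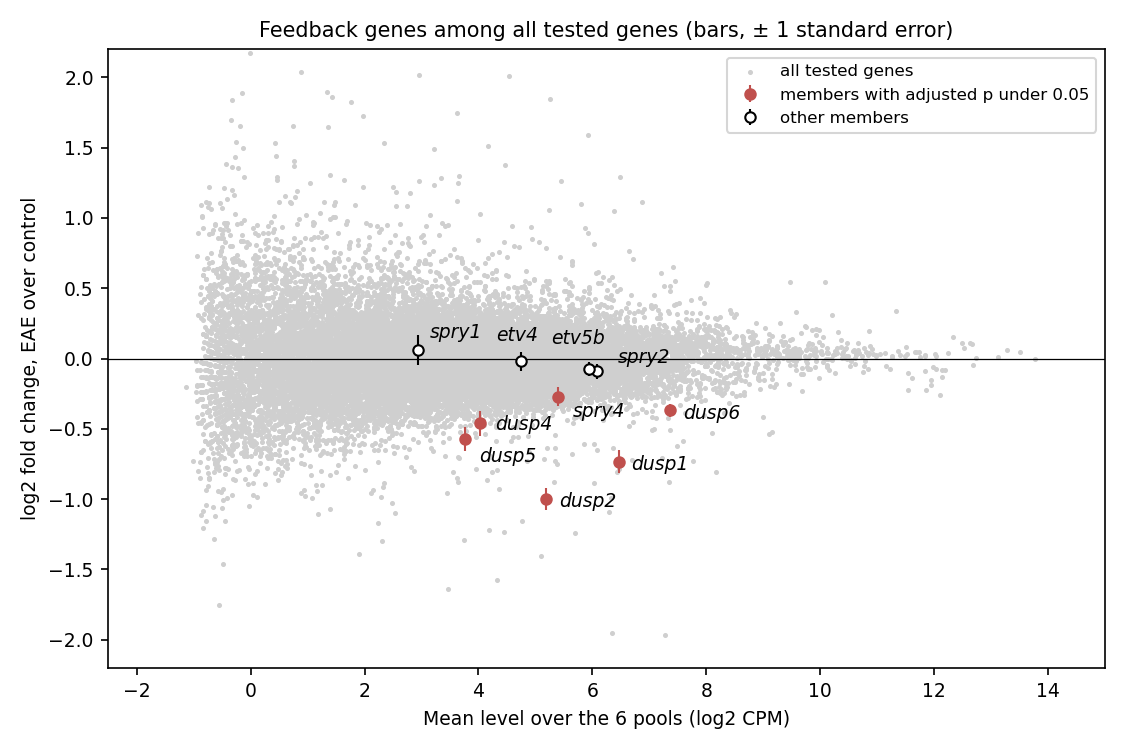
log2 fold change, EAE over control (vertical axis), against the mean level over the 6 pools in log2 CPM (horizontal axis) for all 21617 tested genes (gray) and the 10 members (red where the adjusted p-value was under 0.05, open where not; bars, ± 1 SE). The members with large differences are genes of middle to high level, and 11 genes beyond ± 2.2 are not drawn. Since the members were chosen on this contrast, their color is a description only.

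The deviation of a pool from its own group mean does not enter the fold change. Among the control pools, 6 members (*dusp1*, *dusp2*, *dusp4*, *dusp5*, *spry2* and *spry4*) had the same order, with control pool 1 lowest, control pool 3 in the middle and control pool 2 highest, an order that 16.5% of all tested genes had. Control pool 1 was the lowest control pool for 9 of the 10 members. These 9 included *dusp6*, *spry2* and *etv5b*, whose control pools varied by no more than the counting error. Their coefficients of variation were 1.62%, 0.932% and 0.975%, against counting errors of 1.67%, 2.73% and 2.88%. The control pools of *etv4* and *dusp5* varied by little more than the counting error, at 4.4% against 4.4% and 6.5% against 5.7%. For these genes the order of the control pools therefore cannot be told apart from counting noise. The other order with control pool 1 lowest was that of 3 members (*dusp6*, *etv4* and *etv5b*), and 16.5% of all tested genes had it as well. For *dusp1*, *dusp2* and *dusp4* the pools deviated from the control mean by similar amounts, with -0.17, -0.17 and -0.16 log2 units in control pool 1 and 0.17, 0.17 and 0.18 log2 units in control pool 2.

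For *spry4* the corresponding deviations were -0.19 and 0.12 log2 units. The genes *dusp6*, *spry2* and *etv5b* deviated by at most 0.03 log2 units in any control pool. The order with control pool 1 lowest and control pool 2 highest was found in 15 of 31 tested serum response and immediate early genes. It was also found in 6 of 13 glucocorticoid target genes, 2 of 10 FGF receptor genes and 6 of 23 FGF ligand genes. The share among all tested genes was 16.5%. All these genes were measured in the same 3 control pools and are not separate observations, so nothing is read from these counts. Among the EAE pools no order was shared by more than 3 members, and *dusp1* was lowest in EAE pool 3, by 0.21 log2 units, where *dusp2*, *dusp4* and *dusp5* did not stand out.

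**Figure D3:**
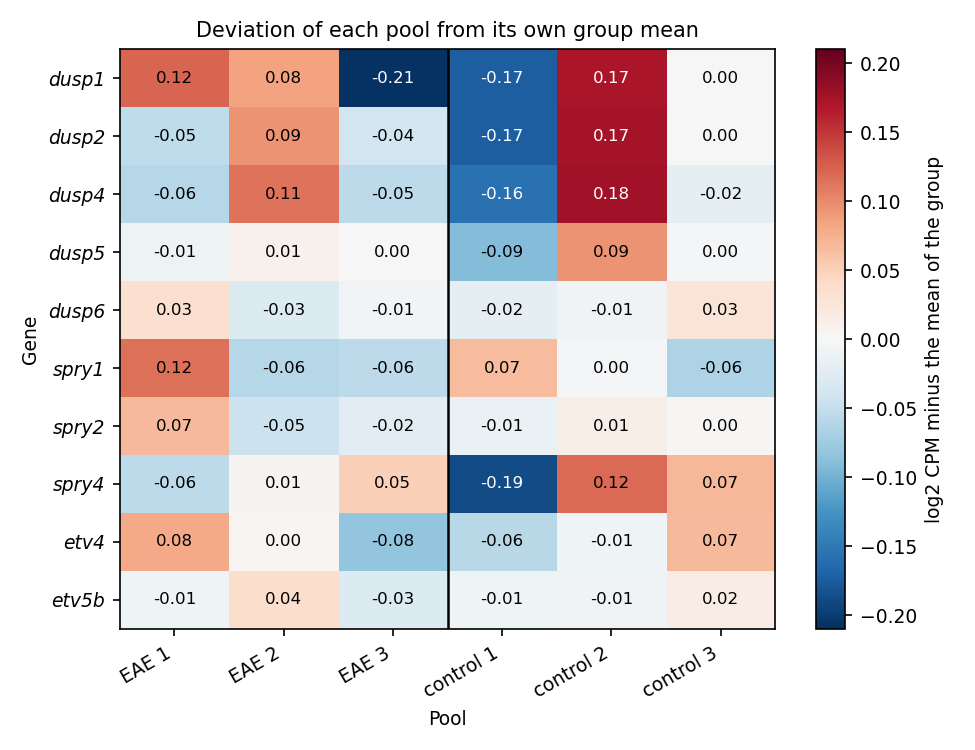
Deviation of each pool (columns, EAE left of the line and control right of it) from its own group mean for each member (rows), in log2 CPM, with red above and blue below the mean. In control pool 1 *dusp1*, *dusp2*, *dusp4* and *spry4* were 0.16 to 0.19 log2 units below the control mean, and in control pool 2 they were 0.12 to 0.18 units above it.

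The other genes of the pathway were taken from lists set up by role. These lists, and those of serum response and glucocorticoid target genes below, were chosen with earlier results of these data known. Their counts and adjusted p-values are therefore given as a description, where 6.95% of all tested genes passed as lower and 7.22% as higher. None of the FGF ligand genes passed the test over all genes in edgeR, with 0 of 23 tested genes lower and 0 higher (at an unadjusted p-value under 0.05, 1 lower and 2 higher), and DESeq2 gave the same counts of 0. Together the ligand genes reached 56.7 to 60.8 CPM in the EAE pools and 58.7 to 60.3 CPM in the control pools. The genes with the highest CPM were *fgf6a*, a ligand of muscle, at 9.77 ± 1.40 CPM in EAE and 8.23 ± 0.04 CPM in control larvae (SD, n = 3 each), and *fgf10a*, a ligand of fin and organ buds, at 6.30 ± 0.17 CPM in EAE and 6.10 ± 0.32 CPM in control larvae. Their log2 fold changes were 0.25 (SE 0.11) and 0.04 (SE 0.11). Without EAE pool 3, *fgf6a* and *fgf17* passed as higher, with log2 fold changes of 0.36 (SE 0.11, adjusted p = 0.029 in edgeR) and 0.96 (SE 0.32, adjusted p = 0.048). In the fit on all 6 pools *fgf17* did not pass (log2 fold change 0.82, SE 0.30, adjusted p = 0.072 in edgeR), and it had only 10 to 28 reads per pool. Ligand genes with few reads had wide errors, such as an SE of 0.37 for *fgf6b*, so the counts of 0 do not exclude changes in them.

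The FGF receptor and coreceptor genes did not pass either, with 0 of 10 lower and 0 higher in edgeR, 0 and 0 at an unadjusted p-value under 0.05, and 0 and 0 with DESeq2. Their median log2 fold change was -0.02. The receptor gene *fgfr2* was at 117.6 ± 3.05 CPM in EAE and 121.3 ± 2.27 CPM in control larvae, a log2 fold change of -0.05 (95% interval from -0.15 to 0.06). The receptor gene *fgfr4* was at 83.9 ± 1.15 CPM in EAE and 87.4 ± 6.23 CPM in control larvae, a log2 fold change of -0.06 (95% interval from -0.18 to 0.06). For both receptors a change in either direction beyond 0.18 log2 units lies outside the interval.

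The kinases and adaptors between receptor and ERK were measured with 36 tested genes, of which 2 passed as lower and 2 as higher. Among all tested genes 6.95% passed as lower and 7.22% as higher. The RAS gene *hrasb* fell (log2 fold change -0.27, SE 0.07, adjusted p = 0.0099 in edgeR), and the RAS gene *nras* rose (0.25, SE 0.07, adjusted p = 0.023). The phosphatase gene *ptpn11a*, which encodes the Shp2 protein that promotes RAS activation, rose by 0.18 (SE 0.05, adjusted p = 0.025), and the FGF receptor adaptor gene *frs3* fell (-0.40, SE 0.13, adjusted p = 0.049). The median of the list was 0.02, and the ERK gene *mapk3* had a log2 fold change of 0.008 (adjusted p = 0.94). Each of these 4 calls was lost without control pool 1, which left 0 lower and 0 higher, and DESeq2 gave 1 lower and 0 higher.

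Among 14 further tested feedback genes of the FGF and ERK routes, 6 fell and 0 rose, beside the 6.95% of all tested genes that were lower. The median log2 fold change was -0.16, with 12 of the 14 genes below 0 and 2 above. At an unadjusted p-value under 0.05 in edgeR, 8 were lower and 1 higher. The greatest fall was that of *errfi1b*, whose mammalian counterpart encodes a feedback inhibitor of the EGF receptor. Its level was 10.5, 11.2 and 12.6 CPM in the EAE pools and 16.7, 21.6 and 20.9 CPM in the control pools. The log2 fold change was -0.79 (SE 0.10, adjusted p = 4.4e-05 in edgeR), and it passed with any one pool left out.

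The paralog *errfi1a* fell by less, with a log2 fold change of -0.30 (SE 0.08, adjusted p = 0.016 in edgeR). The genes *flrt1b* and *flrt3*, which encode membrane proteins that in vertebrates bind FGF receptors, fell (log2 fold changes -0.26 and -0.19, adjusted p = 0.012 and 0.027). The Sprouty-related gene *spred3* and the Pea3 group gene *etv1* fell (log2 fold changes -0.22 and -0.29, adjusted p = 0.041 and 0.042). These genes did not include the established FGF feedback inhibitor *il17rd* (log2 fold change 0.009, adjusted p = 0.95), the Sprouty-related gene *spred1* (-0.005, adjusted p = 0.96) or the cytoplasmic ERK phosphatase gene *dusp7* (0.12, adjusted p = 0.17). Of these, *il17rd* and *dusp7* were the only 2 of the 14 genes above 0, so they do not stand for the other genes that did not pass. Without EAE pool 1 and without control pool 3 only *errfi1b* remained of the 6, and 3 passed without control pool 1. DESeq2 called 3, and the adjusted p-value limit of 0.01 left 1.

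Other dual specificity phosphatase genes changed in few cases, where 6.95% of all tested genes were lower and 7.22% higher. Among 4 tested phosphatase genes that in mammals act on p38 and JNK, *dusp8a* fell (38.3, 43.5 and 44.1 CPM in EAE pools, against 46.9, 51.7 and 49.5 CPM in control pools). Its log2 fold change was -0.24 (SE 0.06, adjusted p = 0.019 in edgeR), and it did not pass without EAE pool 1, control pool 2 or control pool 3 (adjusted p up to 0.10). Among 14 atypical phosphatase genes, which lack the MAP kinase docking region, *dusp3a* fell (-0.27, adjusted p = 0.038) and *dusp23a* rose (0.30, adjusted p = 0.012). The call of *dusp3a* was lost without EAE pool 1 or 2 or control pool 2 or 3 (adjusted p up to 0.16), and that of *dusp23a* without EAE pool 1 or control pool 2 (adjusted p up to 0.080). Of 14 p38 and JNK kinase genes 1 passed, the JNK gene *mapk10* (-0.31, adjusted p = 0.017), which is a neuronal kinase in mammals. It did not pass without EAE pool 1, control pool 1 or control pool 3 (adjusted p up to 0.088).

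**Figure D4:**
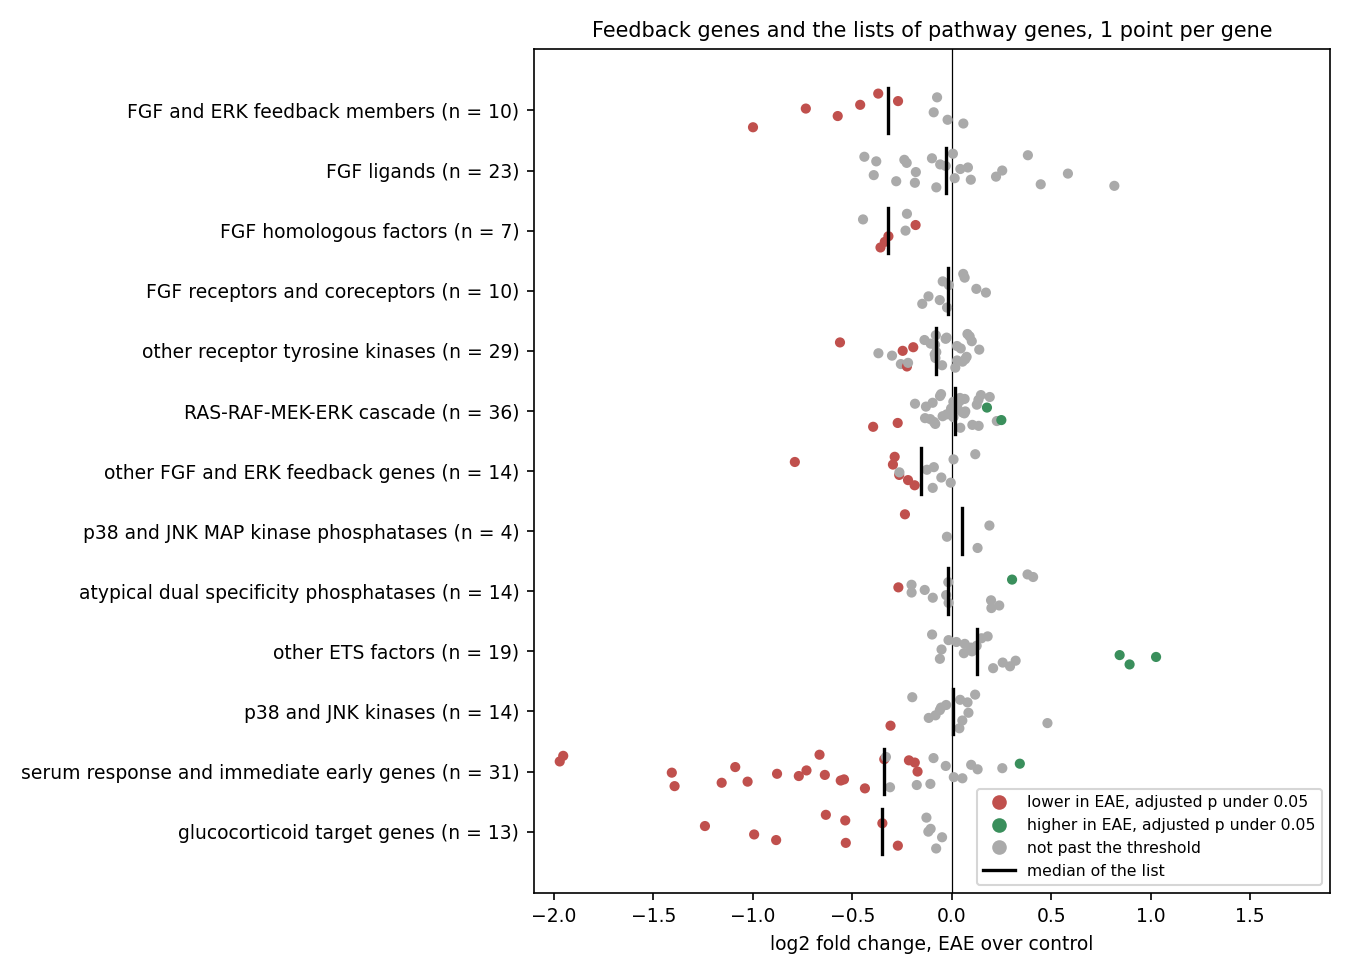
log2 fold change, EAE over control (horizontal axis), of each tested gene of the members and of the 12 lists by role (rows), with red for genes lower and green for genes higher at an adjusted p-value under 0.05, gray for the rest, and a black line at the median of each list. The medians are -0.02 for the FGF receptors, -0.03 for the FGF ligands, -0.34 for the serum response genes and -0.35 for the glucocorticoid target genes. The lowest single genes of these lists are at -0.15, -0.44, -1.97 and -1.24, in the same order.

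Of 29 other receptor tyrosine kinase genes, 4 fell and 0 rose, beside the 6.95% of all tested genes that were lower, and the median log2 fold change was -0.08. They were the neuregulin receptor gene *erbb4a* (-0.56, adjusted p = 0.019 in edgeR), the neurotrophin receptor genes *ntrk2a* and *ntrk3a* (-0.25 and -0.19, adjusted p = 0.023 and 0.045) and the GDNF receptor gene *ret* (-0.23, adjusted p = 0.031). Without EAE pool 1, control pool 1 or control pool 2 none of them passed, and DESeq2 called 1. Of 19 neuron markers 12 were lower and 0 higher in the same pools, with a summed level of 3582 to 3982 CPM in the EAE pools and 4405 to 4477 CPM in the control pools, and none was at 0. Their part in the results for these receptors was not tested.

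The 7 FGF homologous factor genes encode proteins that stay inside the cell and regulate sodium channels in neurons, and do not act as secreted ligands. All 7 had lower mean levels in EAE larvae, and 4 passed the test as lower, beside the 6.95% of all tested genes that were lower. The 4 were *fgf13b*, *fgf11b*, *fgf12a* and *fgf12b*, with log2 fold changes of -0.34, -0.32, -0.36 and -0.18 (adjusted p = 0.0053, 0.011, 0.013 and 0.029 in edgeR). Of these, *fgf13b* passed with any one pool left out, and it was the 1 gene that passed without EAE pool 1 or without control pool 1. Without control pool 2, *fgf12a* passed beside it. The lower level of the neuron markers stands beside these genes too, and its part in their results was not tested. In whole larvae fewer cells of a type and less RNA per cell cannot be told apart.

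Of 19 other ETS factor genes 3 rose, 0 fell and 16 did not pass, beside the 7.22% of all tested genes that were higher, and the median log2 fold change was 0.13. The genes *elf3* and *ehf*, which encode epithelial ETS factors, were at 73.8 to 84.5 CPM and 19.8 to 23.0 CPM in the EAE pools, against 38.6 to 48.3 CPM and 9.03 to 11.9 CPM in the control pools. Their log2 fold changes were 0.89 (SE 0.08, adjusted p = 4.7e-07 in edgeR) and 1.03 (SE 0.10, adjusted p = 1.4e-06). The gene *etv7* rose by 0.84 (SE 0.15, adjusted p = 0.0014). All 3 passed with any one pool left out.

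Several members are themselves induced by serum, stress and hormones, so genes of those responses were examined in the same pools. On a list of 31 tested serum response and immediate early genes, which does not hold the members, 19 fell and 1 rose. Of all tested genes, 6.95% were lower and 7.22% higher. The median log2 fold change of the list was -0.34, and 17 of its 20 called genes passed with any one pool left out. The 5 with the smallest p-values were *npas4a*, *klf2a*, *egr4*, *btg2* and *egr1*, with log2 fold changes of -1.95, -1.97, -1.41, -1.09 and -0.73. The zinc finger gene *egr1*, a direct target of ERK through ternary complex factors, was at 171, 180 and 144 CPM in the EAE pools, against 264, 288 and 270 CPM in the control pools. As for *dusp1*, EAE pool 3 was the lowest. The 1 gene of the list that passed as higher was *junba*, an AP-1 gene, which rose by 0.34 (SE 0.06, adjusted p = 0.0018 in edgeR).

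Among 13 glucocorticoid target genes 8 fell and 0 rose, beside the 6.95% of all tested genes that were lower. The median was -0.35, and the 8 passed with any one pool left out. The 5 with the smallest p-values were *ddit4*, *tsc22d3*, *klf9*, *cebpd* and *pck1*, with log2 fold changes of -1.24, -0.63, -0.88, -0.53 and -0.54. The summed level of this list was 1480 to 1550 CPM in the EAE pools and 1833 to 2224 CPM in the control pools. The summed level of the serum response genes was 1064 to 1154 CPM in the EAE pools and 1614 to 1872 CPM in the control pools. The part of either response in the levels of the members was not tested.

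The profile of the members over the 6 pools was compared with that of 7852 other genes of at least 20 CPM, each scaled to its own mean and SD. The closest were *nfkbiab*, which encodes an inhibitor of NF-kB, *net1*, *g6pca.2*, a glucose-6-phosphatase gene, *cebpd* and *ier2a*. Their root mean square distance from the mean profile of the members was 0.22 to 0.25 SD units. Among the members themselves this distance was 0.24 for *dusp1*, 0.84 for *etv4* and 1.27 for *spry1*, so that *spry1* and *etv4* resembled the others least. The profiles are dominated by the difference between groups, on which the members were chosen, and are a description of these pools.

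Markers of the tissues of a whole larva were present in all pools. The counts of called markers below stand beside 6.95% lower and 7.22% higher among all tested genes. No marker of the 11 tissues examined was at 0 throughout, and skeletal muscle, cartilage, glia, intestine, exocrine pancreas, blood and vessel markers had at most 1 called gene per list. The 19 neuron markers, whose sums are given above, had the most calls, with 12 lower and 0 higher and a median log2 fold change of -0.22. Among 8 skin epithelium markers 2 were lower and 1 higher, and their sum was 9146 to 9993 CPM in the EAE pools and 9986 to 10650 CPM in the control pools. Calls were also found among the markers of liver, with 6 of 9 higher and 0 lower and a sum of 5898 to 6632 CPM in the EAE pools against 5098 to 5539 CPM in the control pools, and photoreceptors, with 3 of 7 lower and 0 higher and a sum of 2420 to 2668 CPM in the EAE pools against 2752 to 2978 CPM in the control pools. Counts on named genes totalled 19921809 to 23638705 per EAE pool and 17264955 to 20724876 per control pool, so 1 read corresponded to 0.0429 to 0.0503 CPM in the EAE pools and 0.0485 to 0.0579 CPM in the control pools. The part of tissue composition in the levels of the members was not tested.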

How the data were processed

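Reads came from poly-A RNA of pooled whole larvae (single-end) and were aligned to GRCz10 with STAR, per the submitters' processing notes. The authors deposited whole-number counts per gene symbol and pool, without normalization. The counting program, annotation, strand and handling of multiply aligned reads are not given in the sources used here, so paralogs and overlapping genes could share reads. The row without a gene name (1.49% to 1.57% of counts) was left out. Counts were normalized by TMM and tested with the quasi-likelihood F test of edgeR 4.0.16 (R 4.3.3) after filterByExpr, with Benjamini-Hochberg adjustment over 21617 genes, and the procedure was tested on simulated data. The SE was the log2 fold change over the square root of F, and log2 CPM used a prior count of 2. The alternatives were DESeq2 1.42.0, RLE normalization, no filter, a replicate block, an adjusted p-value limit of 0.01 and leaving out each pool. Pools of a group differed by more than counting noise (chi-square per degree of freedom 3.44 to 4.87). The members and lists were chosen with earlier results of these data known. Genes named were the members, list genes past the threshold (the 5 with the smallest p-values where more passed, the 2 with the highest CPM where none did) and the 5 nearest profiles. The genes *fgf17*, *mapk3*, *etv5a*, *il17rd*, *spred1*, *dusp7*, *etv1* and *junba* were named after their values were seen.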

Additional observations from a re-analysis of the deposited data

How the results depend on the processing

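The number of members counted as lower was 6 under 7 of the 11 alternatives and 5 under the other 4, and 5 to 6 with each pool left out in turn; it was 6 with the replicate block. The members were chosen on this contrast, so these counts are a description. Over the 10 alternatives that refit the log2 fold changes of the members, the only signs to change were those of *spry1* (-0.006 to 0.09) and *etv4* (-0.06 to 0.02), neither of them called. Over all tested genes, 1503 were lower and 1560 higher; DESeq2 gave 898 lower and 948 higher, the adjusted p-value limit of 0.01 gave 560 lower and 700 higher, and leaving out each pool gave 717 to 1499 lower and 924 to 1497 higher, with 717 lower without EAE replicate 1 and 1499 lower without EAE replicate 3. Of 214 tested genes on the lists by role, 46 were lower and 7 higher, where 6.95% of all tested genes were lower and 7.22% higher. Of these 46, 19 were serum response and immediate early genes and 8 were glucocorticoid target genes. The limit of 0.01 left 27 lower and 4 higher. Leaving out each pool gave 29 to 46 lower and 5 to 9 higher, the fewest lower without EAE replicate 1. Same-numbered pools showed no common deviation (correlations across genes of -0.009, -0.03 and -0.09). With 3 pools per group, this does not settle whether same-numbered pools shared a clutch. The replicate block gave 1121 lower and 1218 higher genes. The limit of 0.01 gives fewer calls by construction. For the falls with DESeq2, the replicate block and single pools left out the cause was not tested. The fewest reads of a member, 127 for *spry1* in control pool 2, limit its interval.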
